A study of Mus musculus with 4 samples.

Results

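The regions described here were partly methylated in WT hair matrix keratinocytes and more highly methylated, at a median of 87.5%, in cells lacking Tet2 and Tet3. They were selected on the authors' group means, as autosomal regions of the deposited table with a WT level from 60% to below 80% and a level at least 20 percentage points higher in the knockout. Of 484555 listed regions, 474611 lay on chromosomes 1 to 19, and 12795 of these (2.7%) met the rule. They are called 60–80% gains below, and a difference is always DKO minus WT. They made up 11.6% of the 110564 autosomal regions that gained 20 points or more, and 9.64% of the 132754 autosomal regions listed with a WT level of 60% to 80%.

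Whole-genome bisulfite sequencing gave the methylation of sorted primary hair matrix keratinocytes, the dividing epithelial cells at the base of the follicle that form the hair shaft and its inner sheath, at postnatal day 4.5. The groups were 2 libraries with loss of both Tet2 and Tet3 under Krt14-Cre, a recombinase driven in the basal epithelium (Tet2/Tet3 DKO), and 2 WT libraries. Whether the WT mice carried the Cre or the floxed alleles, whether animals were pooled and whether the cells were fixed are not stated in the labels. The deposited table gives a mean per group for each region and neither values per library nor read counts. The depth is therefore unknown, no difference below has a replicate check, and the values are descriptions without a test. The WT was read as the first group from the order of the names in the table's title, and every direction would turn if that order were the opposite.

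TET dioxygenases oxidise 5-methylcytosine to 5-hydroxymethylcytosine and further, a route by which methyl groups are removed from DNA, and act mainly at enhancers, at the borders of CpG islands and in the bodies of active genes. Most CpGs of a mammalian genome are methylated in most cells. A level between the extremes, seen in bulk DNA, means that some copies are methylated and others are not, and these data cannot tell apart differences between cells from differences between alleles or positions. Bisulfite treatment reads 5-methylcytosine and 5-hydroxymethylcytosine alike, so a level is the sum of both.

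Few 60–80% gains touched a promoter, and those that did had few CpGs. Of 20085 windows from 250 bases upstream to 50 bases downstream of a protein-coding gene start, 18 (0.0896%) overlapped such a gain, and each belonged to a different gene. These windows come from RefSeq (GRCm38.p6) and cover 16457 of 20665 autosomal protein-coding genes. The 18 windows had a median of 3.5 CpGs (interquartile range 2 to 6), against 5 CpGs (3 to 7) in the 474 windows that overlapped only other gains of 20 points or more, and 14 CpGs (4 to 25) over all windows. At least 10 CpGs were present in 5.56% of the 18 windows, 7.17% of the 474 windows with only other gains and 57.9% of all windows. Few CpGs were thus shared by the windows of other gains.

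The 4 such windows whose gain held the most cytosine positions are shown because they give the bases of the gain next to a gene start. Each is printed in the direction of its gene with CpGs inside the gain in capitals. The windows are, on GRCm38.p6, chr2:31096451-31096750 on the minus strand for Fnbp1, chr1:57985090-57985389 on the plus strand for Sgo2a, chr17:79626425-79626724 on the plus strand for Rmdn2 and chr7:28070986-28071285 on the plus strand for Fcgbp.
Fnbp1: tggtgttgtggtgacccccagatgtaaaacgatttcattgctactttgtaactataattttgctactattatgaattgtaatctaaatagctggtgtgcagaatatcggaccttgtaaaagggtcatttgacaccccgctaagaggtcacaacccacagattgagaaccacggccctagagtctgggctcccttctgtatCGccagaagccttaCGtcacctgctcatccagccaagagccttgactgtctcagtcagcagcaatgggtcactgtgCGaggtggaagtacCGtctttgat
Sgo2a: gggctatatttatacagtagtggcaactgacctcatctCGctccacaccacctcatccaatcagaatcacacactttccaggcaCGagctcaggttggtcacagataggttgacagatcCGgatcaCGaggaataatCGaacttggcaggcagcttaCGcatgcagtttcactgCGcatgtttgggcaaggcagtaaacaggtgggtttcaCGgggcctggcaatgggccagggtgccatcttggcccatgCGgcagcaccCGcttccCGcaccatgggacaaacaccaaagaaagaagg
Rmdn2: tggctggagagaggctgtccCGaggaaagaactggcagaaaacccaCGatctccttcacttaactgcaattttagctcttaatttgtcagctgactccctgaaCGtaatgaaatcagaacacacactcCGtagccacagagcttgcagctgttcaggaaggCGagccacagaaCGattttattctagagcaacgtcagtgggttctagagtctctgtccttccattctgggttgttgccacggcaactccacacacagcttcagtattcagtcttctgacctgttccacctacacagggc
Fcgbp: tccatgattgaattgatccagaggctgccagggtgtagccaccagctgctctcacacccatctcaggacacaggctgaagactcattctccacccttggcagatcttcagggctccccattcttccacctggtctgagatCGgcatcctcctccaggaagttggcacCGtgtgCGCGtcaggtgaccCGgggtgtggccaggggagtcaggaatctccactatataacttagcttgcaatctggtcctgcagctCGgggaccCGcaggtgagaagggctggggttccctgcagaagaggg

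In the Sgo2a window all 11 CpGs lay inside the gain, and in the Fcgbp window all 7. The Rmdn2 gain covered 6 of 8 CpGs, all upstream of the start, and the Fnbp1 gain covered 4 of 8, around and downstream of it. Sgo2a encodes a shugoshin that protects the cohesion of chromosomes. The region across its start (chromosome 1, 57984792 to 57985359, 36 positions) was at 90.8% in the DKO and 63.3% in the WT in the authors' deposited table, with a spread estimate of 3.57 points. Fnbp1 encodes a membrane-bending protein that binds formins, and the window is an alternative start within the gene. Its region (chromosome 2, 31096087 to 31096550, 38 positions) was at 89.2% in the DKO and 62.1% in the WT in the authors' deposited table. Authors' means were 85.5% in the DKO and 60.6% in the WT at Rmdn2, a microtubule-associated protein gene, and 84.9% in the DKO and 63.6% in the WT at Fcgbp, which encodes a mucin-like protein. The Rmdn2 window is also an alternative start, since its gain lay upstream of that start and still overlapped the gene. All 4 promoter-bound gains thus had WT levels in the lower part of the chosen range. Most of the selected regions did so too, with a WT level below 65% in 67.8% of them.

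Of sequence motifs searched on both strands, TATAAA was present in 5 of the 18 windows (27.8%) and in 12.7% of all windows. CCAAT was present in 4 (22.2%, against 38.1% of all windows), and the GC box GGGCGG in 3 (16.7%, against 47.0%). CACGTG and TGANTCA were in none of the 18, against 7.89% and 7.06% of all windows. With 18 windows these shares rest on few counts, and a match is a string of letters only.

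The levels that chose the regions lay near the lower bound in the WT. Across all 12795 regions the lowest, median and highest levels were 80.1%, 87.5% and 99.9% in the DKO, against 60.0004%, 63.3% and 79.2% in the WT. A WT level below 65% was seen in 67.8% of them and one of 70% or more in 4.53%. The median gain was 23.1 points (interquartile range 21.5 to 25.2), 73.2% gained less than 25 points, 2.06% gained 30 points or more, and none reached 40 points. The ranges do not overlap because the rule sets them so.

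**Figure D1:**
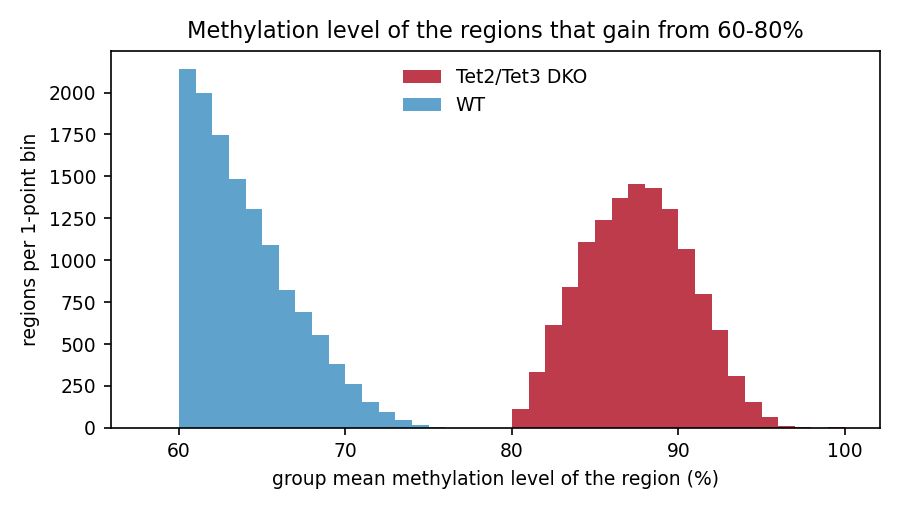
Number of 60–80% gains per 1-point bin of group mean methylation level (x axis, %) in the Tet2/Tet3 DKO (red) and the WT (blue). WT levels crowd at the lower bound of 60%, with a median of 63.3%, and DKO levels centre on a median of 87.5%.

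At the bounds, the region just inside the difference limit was at 91.2706% in the DKO and 71.2701% in the WT, a gain of 20.0005 points, and the one just outside was at 81.7605% in the DKO and 61.7606% in the WT, a gain of 19.9999 points. Within 1 point of that limit there were 2196 regions inside and 1760 outside. At the WT limit of 60%, 2142 regions lay within 1 point above it, and 2267 regions gaining 20 points lay within 1 point below it. The set is therefore one part of a continuous range of gains and has no gap at its edges.

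Knockout levels were high but short of complete. A DKO level of at least 85% was reached by 76.5% of the regions, one of at least 90% by 23.4%, and one of at least 95% by 0.625% (80 regions). Expressed against the part of the DNA that was unmethylated in the WT, the gain took up a median of 65.3% of it (interquartile range 60.2 to 70.7). That share was 56.5% for regions gaining 20 points or more from a WT level of 40% to 60%, and 49.3% for those gaining from 20% to 40%. The rule sets a floor of this share for each WT level, so these shares are descriptions. Median DKO levels were 87.5% for the 60–80% gains, 78.8% for the 58348 gains from 40% to 60% and 65.9% for the 34972 gains from 20% to 40%.

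Most of these regions were short. The median length was 206 bp (interquartile range 32.5 to 430) with a median of 8 cytosine positions, and all of them together covered 3.50 Mb. Most regions with 2 positions (89.9%) spanned 2 bp, the cytosines on both strands of a single CpG, so the number of CpGs is nearer to one per pair of positions. Gains from 40% to 60% had a median of 324 bp and those from 20% to 40% a median of 459 bp, while the 119959 other listed regions of 60% to 80% in the WT had a median of 175 bp. At least 1 kb was spanned by 1.91% of the 60–80% gains, 7.44% of the gains from 40% to 60% and 15.2% of the gains from 20% to 40%. Region bounds come from the same contrast that chose the regions, so length is not independent of the rule.

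Levels differed little with size within the set. The 2705 regions of 1 or 2 positions (21.1%) had a median DKO level of 87.2% and a median gain of 22.6 points. The 1617 regions of 20 positions or more had a median DKO level of 88.3% and a median gain of 24.1 points, and made up 31.8% of the covered length, against 0.338% for the smallest. Cytosine positions were slightly denser than in the other sets, at a median of 3.44 per 100 bp over regions of at least 50 bp, against 3.16 in gains from 40% to 60%, 3.34 in gains from 20% to 40% and 2.81 in other listed regions of 60% to 80%. The authors' spread estimate had a median of 3.49 points and a highest value of 7.77 points. The same value recurred in regions far apart. It was 3.403 points at regions of Lef1, Ccna2 and Maml3 on chromosome 3. At regions of Znrf3, Erbb2 and Suz12 on chromosome 11 it was 3.199 points. At such regions the estimate cannot be read as the spread of that region alone.

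Among regions in or within 5 kb of a gene, the 6 with most positions held 58 to 69. Acly, the ATP citrate lyase that supplies acetyl-CoA for lipid synthesis, held the one with most positions (chromosome 11, 100504855 to 100506784, 69 positions). It was at 93.0% in the DKO and 63.8% in the WT, with a spread estimate of 3.35 points, in the authors' deposited table. A region of 62 positions inside Dennd2c, a regulator of Rab proteins, was at 89.2% in the DKO and 61.2% in the WT by the authors' means. Nomo1, an endoplasmic reticulum membrane protein gene, also held one of 62 positions, at 86.7% in the DKO and 63.2% in the WT. Regions of 58 or 59 positions lay in Palld, an actin-bundling protein gene, in Snx10, a sorting nexin gene of endosomes, and at an end of Trappc5, which encodes a subunit of a vesicle-tethering complex. By the authors' means Palld was at 89.4% in the DKO and 62.3% in the WT, Snx10 at 90.2% in the DKO and 60.4% in the WT, and Trappc5 at 93.4% in the DKO and 64.2% in the WT. None of these 6 lay within 10 kb of a gain of 40 points or more. Of all the selected regions, 15.3% had such a gain within 10 kb, so its absence does not set these 6 apart.

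The largest differences among regions of at least 10 positions at or near a gene ran from 33.5 to 34.9 points. The largest lay within 5 kb of Slc41a2, a magnesium transporter gene (chromosome 10, 83338927 to 83339889, 22 positions). It was at 95.2% in the DKO and 60.3% in the WT, with a spread estimate of 4.71 points, in the authors' deposited table. The nearest listed region to it, 857 bp away, was at 3.59% in the DKO and 3.19% in the WT. Such a neighbour, under 10% in both groups, was the nearest listed region of 193 of the 12795 regions (1.51%). In App, the amyloid precursor protein gene, a region of 12 positions was at 94.8% in the DKO and 61.1% in the WT, and the nearest listed region, 404 bp away, was at 86.4% in the DKO and 21.9% in the WT by the authors' means. Gk5, of the glycerol kinase family, showed 94.3% in the DKO and 60.4% in the WT over 16. Cep78, a centrosomal protein gene, reached 94.9% in the DKO, against 61.5% in the WT. Ccdc192 on chromosome 18 reached 94.1% in the DKO, against 60.2% in the WT.

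The 6 highest knockout levels among regions of at least 10 positions in or within 5 kb of a gene were between 95.5% and 95.95%. Nfkb1, which encodes a subunit of the NF-kappaB factor, was at 95.95% in the DKO and 64.6% in the WT over 18 positions. Kif13a, a kinesin motor gene, was at 95.9% in the DKO and 63.1% in the WT over 24 positions. The largest WT level among the 6 was that of Cox10, an enzyme of haem A synthesis, with 95.6% in the DKO and 73.2% in the WT. Yaf2, a partner of Polycomb complexes, was at 95.5% in the DKO and 71.2% in the WT. Best3, of the bestrophin channel family, and Carmil1, a regulator of actin capping, reached 95.5% each in the DKO, against 69.2% and 65.1% in the WT.

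Most 60–80% gains lay inside protein-coding genes. The share inside a gene and more than 1 kb from either of its ends was 62.5% (8001 regions, 95% Wilson interval 61.7 to 63.4). The same share was 50.5% (50.1 to 50.9) for gains from 40% to 60%, 49.0% for gains from 20% to 40% and 36.6% for the other listed regions of 60% to 80%. Between genes lay 33.4% of the 60–80% gains, against 45.0%, 44.3% and 60.8% of those 3 sets. Within 1 kb of a gene end lay 4.10% of them (525 regions), against 4.56%, 6.70% and 2.64%. Over all autosomal listed regions 44.9% lay inside a gene and 4.87% at a gene end. The intervals cover counting error over regions only and treat neighbouring regions as independent. No test over replicates was made, since the table used holds group means. The other listed regions of 60% to 80% had a higher median WT level, 74.7%, against 63.3% in the 60–80% gains, and 85122 of the 119959 were lower in the DKO.

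**Figure D2:**
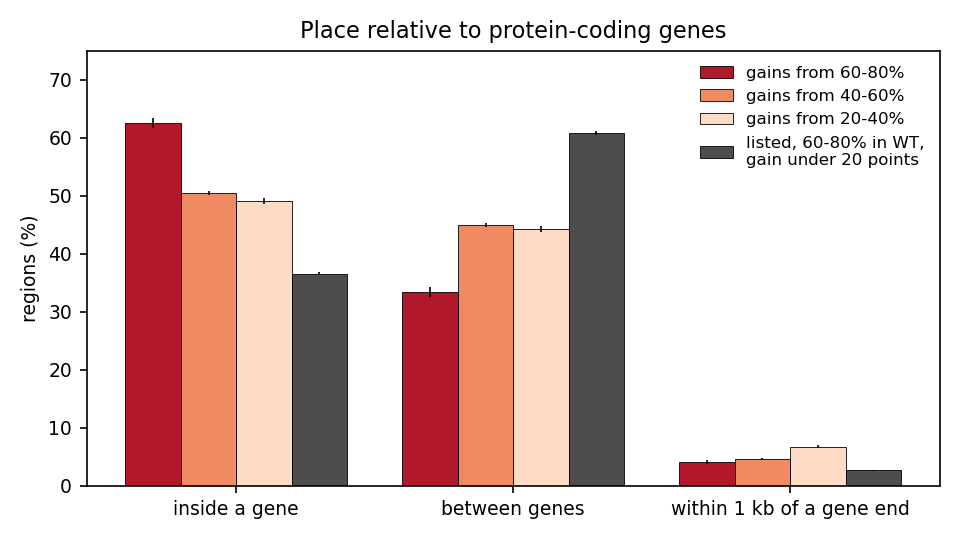
Share of regions (y axis, %) inside a protein-coding gene, between genes and within 1 kb of a gene end, for the 60–80% gains and 3 comparison sets. Bars show the share and lines its 95% Wilson interval (counting error only). The 60–80% gains stand at 62.5% inside genes, against 36.6% of the other listed regions of that WT level.

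Seen from the genes, 14.1% of the 56808 autosomal gains of 20 points or more inside genes were 60–80% gains, against 8.93% of the 47824 between genes and 8.85% of the 5932 at gene ends. Among 60–80% gains, those inside genes had a median level of 87.9% in the DKO and 63.6% in the WT, and those between genes a median of 86.9% in the DKO and 62.9% in the WT. Regions at gene ends were longest, with a median of 249 bp and 10 positions, against 211 bp inside genes and 189 bp between them.

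Inside genes these regions leaned away from the gene start. For genes whose strand the RefSeq windows give, 18.6% of 6713 pairs of a region and a gene had the region's midpoint in the first 20% of the gene and 22.2% in the last 20%. For gains from 40% to 60% the shares were 22.3% at the start and 19.5% at the far end, and for gains from 20% to 40% they were 27.4% at the start and 16.2% at the far end. The other listed regions of 60% to 80% were spread more evenly, with 19.8% at the start. Off chromosome 18, a gene start of these windows lay within 1 kb of 0.990% of the 60–80% gains, 2.16% of the gains from 40% to 60%, 4.6% of those from 20% to 40% and 1.09% of the other listed regions. Within 50 kb the order was another, with 53.95% of the 60–80% gains, 49.6% of the gains from 40% to 60% and 53.1% of those from 20% to 40%. These windows also lack gene starts over stretches of other chromosomes. Regions there count as having no start nearby, so the shares may be too low.

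Strong gains were seldom next door but often in the wider neighbourhood. The median distance from a 60–80% gain to the nearest of the 11851 autosomal regions that gained 40 points or more was 56743 bp (interquartile range 19754 to 146514). A gain of 40 points lay within 1 kb of 4.31% (552 regions), within 5 kb of 9.57% and within 50 kb of 46.4%. The other listed regions of 60% to 80% had a median distance of 188322 bp, with 1.42% within 1 kb and 26.8% within 50 kb. Gains from 40% to 60% had a median of 51468 bp and gains from 20% to 40% a median of 33374 bp, and within 1 kb of another gain of 40 points lay 6.24% and 10.5% of them. Within 50 kb lay 49.3% and 58.2% of them, both above the share of the 60–80% gains. A gain from 60% or more cannot exceed 40 points, whereas both lower sets hold such gains themselves.

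**Figure D3:**
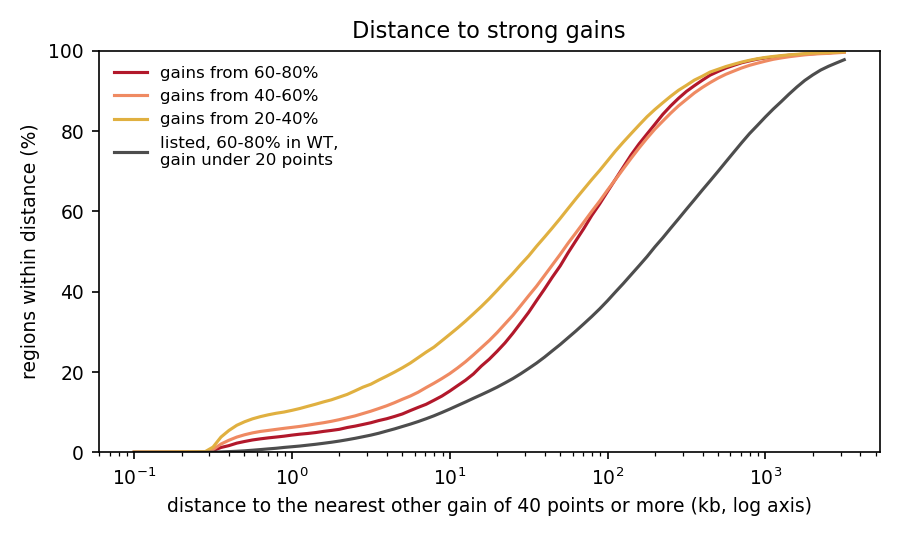
Share of regions (y axis, %) with another gain of 40 points or more within the distance on the x axis (kb, log axis), for the 60–80% gains and 3 comparison sets. At 50 kb the curve of the 60–80% gains stands at 46.4% and that of the other listed regions of 60% to 80% at 26.8%. Gains from 40% to 60% stand at 49.3% there and gains from 20% to 40% at 58.2%.

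DKO levels were slightly higher where a strong gain was close. The 552 regions within 1 kb of a gain of 40 points had a median of 89.1% in the DKO and 63.1% in the WT, a median gain of 24.7 points and a median length of 37 bp. Between 5 and 50 kb away the 4710 regions had a median of 87.8% in the DKO and 63.3% in the WT, with a median gain of 23.3 points. The 661 regions more than 500 kb away had a median of 86.3% in the DKO and 63.0% in the WT, with a median gain of 22.2 points and a length of 159 bp. WT medians differed by less than 1 point between the distance classes, and the DKO medians fell in order over all 5 of them. The rule that chose the regions bounds both levels, so this order is a description. The part of smoothing between close regions in it was not tested.

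Gains of any size were much closer. Another region gaining 20 points or more lay within 1 kb of 46.6% of the 60–80% gains and within 5 kb of 68.9%, at a median distance of 1434 bp. The shares within 1 kb were 50.7% for gains from 40% to 60%, 46.8% for gains from 20% to 40% and 7.29% for the other listed regions of 60% to 80%. Within 300 bp, 1.70% of the 60–80% gains had another gain. The nearest listed region of any kind was a gain of 20 points for 51.8% of the 60–80% gains, against 10.9% of the other listed regions of that WT level. It had gained from a WT level under 60% for 32.7% and from 60% or more for 19.1%, had a higher DKO level by under 20 points for 19.1%, and had a lower one for 29.1%. Smoothing of levels over neighbouring positions is not described in the labels, and its part in the likeness of neighbours was not tested.

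**Figure D4:**
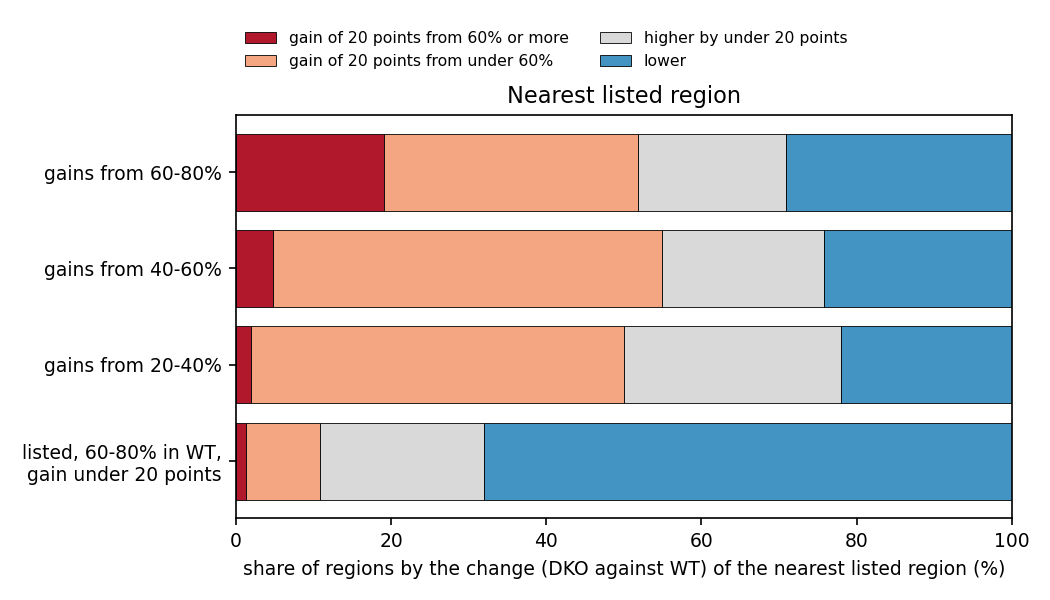
Each bar splits a set of regions by the change of the nearest listed region, as a share of the set (x axis, %). For the 60–80% gains (top bar) that neighbour had itself gained 20 points or more in 51.8%, and for the other listed regions of 60% to 80% in the WT (bottom bar) in 10.9%.

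Where gains followed each other at gaps of at most 1 kb, the 60–80% gains tended to stand at the outside. Of the 12795, 6837 (53.4%) stood alone by that gap, 3819 (29.8%) were in a run with at least 1 gain from under 60%, and 2139 were in runs made only of 60–80% gains. In the 1273 runs of 3 or more gains that held both kinds, 84.4% of the 1584 60–80% gains were the first or last of their run, against 44.4% of the 2720 other gains. In these runs the 60–80% gains had a median of 4 positions, against 7 for the other gains. The largest number of 60–80% gains in 1 run was 6. The WT level that chose the regions also sets these positions, so they are a description.

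An example, chosen after its values were seen, lay near Krt33a, a hair shaft keratin gene, where a pair of such regions lay outside the gene, at 89.3% in the DKO and 62.5% in the WT over 2 positions and at 90.97% in the DKO and 64.1% in the WT over 14 positions. The smaller lay 306 bp from a gain whose WT level was 44.4%.

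Over the genome, 5388 of 20665 autosomal protein-coding genes (26.1%) held a 60–80% gain in the gene or the 5 kb on either side. A single such region was held by 3228 genes. Longer genes held more, with 54.6% of the longest of 4 equal classes by length (median 91.3 kb) and 6.46% of the shortest (median 2.43 kb). Per Mb of window the 4 classes, short to long, held 5.89, 8.32, 10.4 and 7.89, so density was highest in the third class. The 6 genes with most of them were long, from 234 to 1297 kb. Tenm3, a teneurin cell adhesion gene, held 19, among 84 gains of 20 points or more. Utrn, the dystrophin relative utrophin, held 18 among 57, Wwox, an oxidoreductase with WW domains, 16 among 88, Stox2 14 among 51, Lrmda 14 among 143 and Foxp1, a forkhead factor, 13 among 76. Within Tenm3 the lowest, median and highest levels were 80.6%, 87.9% and 91.9% in the DKO, against 60.3%, 63.7% and 70.4% in the WT. Stox2 had the largest median gain of the 6, at 26.8 points, with medians of 90.1% in the DKO and 63.2% in the WT.

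By chromosome the density ran from 4.07 regions per Mb on chromosome 1 to 7.08 on chromosome 17. The share of all gains of 20 points that were 60–80% gains varied less, from 10.3% on chromosome 15 to 13.3% on chromosome 10.

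Among the gains of the hair matrix, keratin and adhesion lists, 60–80% gains were a smaller share than over all genes. Their number per Mb of window was higher in the hair matrix and adhesion lists. The keratin lists rest on 3 regions or fewer each, too few to rank, and epidermal keratins were close to the value over all genes. Over all autosomal protein-coding windows, 9949 of 75332 pairs of a gene and a gain (13.2%) were 60–80% gains, and these windows can share regions. Hair matrix transcription factors had 20 of 294 (6.803%), inner root sheath keratins 2 of 43 (4.65%), hair shaft keratins 3 of 37 (8.11%), epidermal keratins 2 of 45 (4.44%) and genes of adhesion and crosslinking 13 of 172 (7.56%). Per Mb of window there were 9.80 of them for hair matrix factors, 13.2 each for inner root sheath and hair shaft keratins, 8.69 for epidermal keratins and 10.8 for adhesion genes, against 8.23 over all genes. The 2 of the inner root sheath keratins were a single region outside both genes, counted for Krt26 and again for Krt27. Signalling lists stood at 29 of 341 for Wnt (8.50%), 22 of 256 for BMP and TGF-beta (8.59%), 23 of 318 for Notch, Shh and Eda (7.23%) and 12 of 197 for FGF, EGF and IGF (6.09%). Per Mb of window these lists held 13.1, 10.7, 9.23 and 3.23, the last below the 8.23 over all genes. Stem cell and outer root sheath genes had 22 of 244 (9.02%), and genes of DNA methylation 8 of 92 (8.70%). Chromatin regulators had 40 of 227 (17.6%), housekeeping genes 10 of 63 (15.9%), cell cycle genes 15 of 126 (11.9%) and Polycomb targets 2 of 21 (9.52%). Markers of other skin cells stood at 9 of 44 for fibroblasts and dermal papilla (20.5%), 5 of 56 for melanocytes (8.93%), 3 of 24 for immune cells (12.5%) and 8 of 69 for endothelium and muscle (11.6%). These are descriptions of chosen lists, and several rest on few regions.

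**Figure D5:**
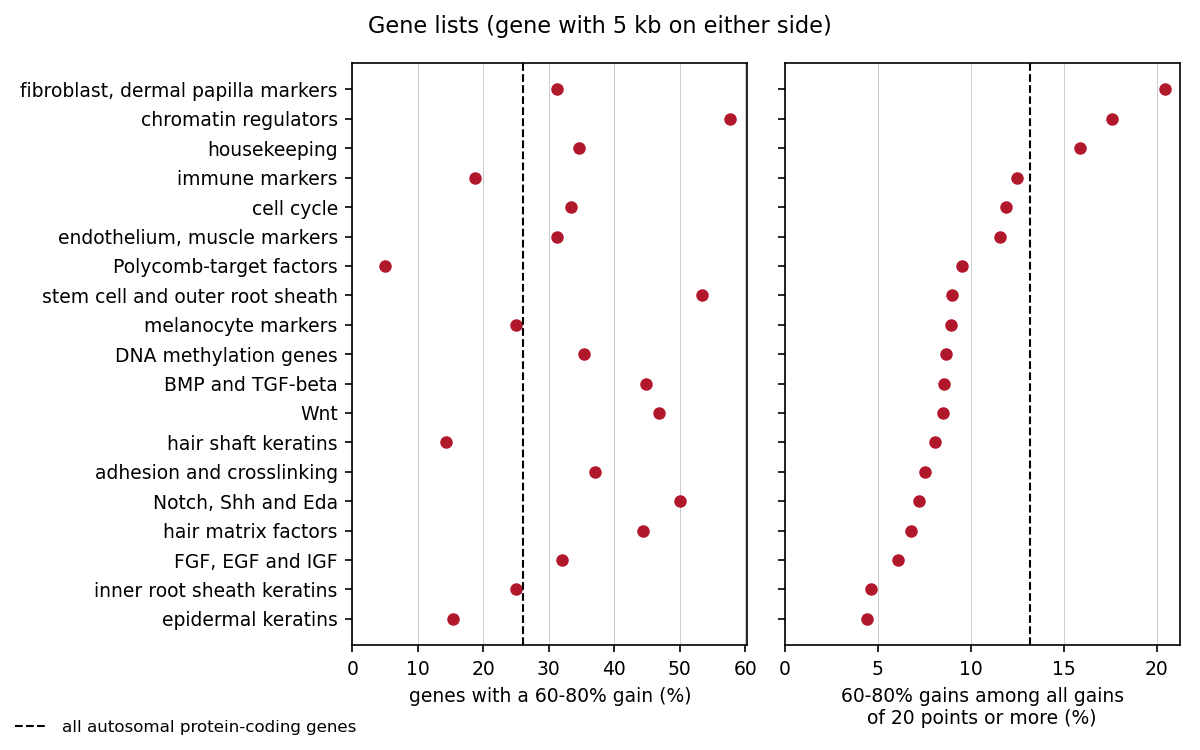
Left, share of the genes of each list that hold a 60–80% gain in the gene or 5 kb on either side (x axis, %). Right, share of 60–80% gains among all gains of 20 points or more in those windows (x axis, %). Dashed lines mark all autosomal protein-coding genes, at 26.1% and 13.2%, and hair matrix factors stand at 44.4% and 6.803%.

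Read against the 26.1% of all genes, 12 of 27 hair matrix factors held a 60–80% gain, with a median gene length of 26.9 kb, against 17.5 kb over all genes. Cux1, a homeobox factor needed for normal hair, held 4 of them among 24 gains. Runx1, a factor of follicle stem cell activation, held 2 among 42, the one with the larger gain at 90.7% in the DKO and 60.4% in the WT over 14 positions by the authors' means. Of the keratins, 2 of 8 for the inner root sheath, 2 of 14 for the hair shaft and 2 of 13 for the epidermis held one. In the gene body alone these were 0 for the inner root sheath, 1 for the hair shaft and 1 for the epidermis, and the region counted for Krt26 and Krt27 lay 2942 bp from Krt26 and 4507 bp from Krt27. Those with a region, named after their values were seen, were Krt26 and Krt27, which share it, Krt33a and Krt39, and Krt14 and Krt17. The region inside Krt39, a late hair keratin (chromosome 11, 99518917 to 99519634, 28 positions), was at 91.9% in the DKO and 60.98% in the WT in the authors' deposited table. At an end of Krt14, the basal keratin whose promoter drives the Cre, a region of 4 positions was at 87.3% in the DKO and 60.2% in the WT. That region lay 930 bp outside the gene and 3798 bp from the nearest gene start of the windows used. Among 27 genes of adhesion and crosslinking 10 held one, led by Jup, Gjb6 and Pkp1, the last named after its values were seen, with 2 each. In Jup, the desmosomal plakoglobin, the one with the larger gain was at 86.2% in the DKO and 64.1% in the WT.

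Signalling genes held these regions in 15 of 32 cases for Wnt, 13 of 29 for BMP and TGF-beta, 13 of 26 for Notch, Shh and Eda and 8 of 25 for FGF, EGF and IGF, against 26.1% of all genes. Median gene lengths were 40.5 kb for Wnt, 61.03 kb for BMP and TGF-beta, 41.7 kb for Notch, Shh and Eda and 30.4 kb for FGF, EGF and IGF, against 17.5 kb over all genes. Fzd3, a Wnt receptor, had 4 among its 5 gains, and the one with the largest gain was at 87.2% in the DKO and 62.8% in the WT over 21 positions. Apc, part of the complex that degrades beta-catenin, had 4 among 11. The BMP receptor gene Bmpr1a had 4 among 6, while Smad3, a transducer of TGF-beta, had 4 among 30, the largest at 89.7% in the DKO and 65.6% in the WT over 24 positions. Maml3, a Notch coactivator, had 6 among 61, and Gli2, a hedgehog effector, 3 among 44. Igf2r had 3 among 7 and Igf1r 2 among 38. The largest gain at Igf2r, a receptor that clears IGF2, was at 86.8% in the DKO and 62.9% in the WT, and that at Igf1r, the signalling receptor, at 89.6% in the DKO and 60.9% in the WT.

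Among 15 stem cell and outer root sheath genes, 8 held a 60–80% gain (53.3%, against 26.1% of all genes). The median gene length of the list was 95.8 kb, and 54.6% of genes in the longest length class held one. Nfib, a factor of follicle stem cells, held 11 among 59 gains, and their levels ran from 82.7% to 93.7% in the DKO, against 61.4% to 73.2% in the WT. In Tcf7l1, a repressor in stem cells, the largest of 3 was at 91.1% in the DKO and 61.3% in the WT over 32 positions. Cell cycle genes held one in 10 of 30 cases, led by Ccna2 with 3 of its 4 gains and Rb1 with 3 of 9. Genes of DNA methylation held one in 6 of 17. Tet3 itself had 2, the larger gain being at 92.9% in the DKO and 67.2% in the WT over 2 positions, Tet2, also named after its values were seen, had 1 at 88.1% in the DKO and 61.2% in the WT, and Idh2, a mitochondrial source of the TET cofactor 2-oxoglutarate, had 2. Read coverage inside the deleted genes is unknown.

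Chromatin regulators were the list with the highest share of genes holding one, 15 of 26 (57.7%), against 26.1% of all genes. The median gene length of the list was 71.8 kb, and 54.6% of genes in the longest length class (median 91.3 kb) held one. Hdac4, a histone deacetylase, held 6 among 30 gains. All 3 gains at Crebbp, a histone acetyltransferase, and 4 of 5 at Ctcf, an insulator protein, were 60–80% gains (both genes and the Polycomb targets below named after their values were seen). Housekeeping genes, with a median length of 11.0 kb, held one in 9 of 26 cases. Their windows held 15.4 regions per Mb, those of chromatin regulators 15.0, those of the follicle stem cell list 15.4 and those of Wnt genes 13.1. Rab7, a small GTPase of late endosomes, had 2 among 5, the larger gain being at 91.9% in the DKO and 68.7% in the WT over 24 positions. Developmental factors known as Polycomb targets held one in 2 of 40 cases, Pax5 and Barhl1, at 1.37 per Mb. The median gene length of this list was 7.80 kb, and 9 of the 40 genes held a gain from any WT level. By length, 6.46% of genes in the shortest class (median 2.43 kb) held a region of the set. In the second class (median 10.78 kb) 14.75% did. Those classes held 5.89 and 8.32 such regions per Mb. Whether the low count is particular to Polycomb targets was not tested. Snrpd3, a splicing protein gene of the housekeeping list, had 1 such region, at 90.2% in the DKO and 62.0% in the WT. Markers of other cells that a sort could hold had one in 5 of 16 for fibroblasts and dermal papilla (31.2%), 3 of 12 for melanocytes (25%), 3 of 16 for immune cells (18.8%) and 5 of 16 for endothelium and muscle (31.2%), against 26.1% of all genes. Dcn, a proteoglycan of fibroblasts, held 4 among 10 gains, the largest at 91.5% in the DKO and 63.3% in the WT. Mitf, the melanocyte regulator, held 3 among 26, the largest at 89.5% in the DKO and 61.8% in the WT. Lepr, the leptin receptor gene, Vwf and Tek, of endothelium, held 2 each, and Mlana of melanocytes and Cd68 and Csf1r of macrophages 1 each. Methylation at a marker gene does not measure how many such cells were present, and their part in these levels was not tested.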

How the data were processed

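Bisulfite reads came from 2 Tet2/Tet3 DKO and 2 WT libraries. Trim Galore, Bismark and the builds GRCm38 and mm10 are named, without roles, in the submitters' processing notes. No source used here names the region caller, its smoothing or its filters. Per the file headers, the deposited table gives each region's mean methylation level in each group as a fraction, given here in percent. The deposited statistic and spread estimate were treated as a score. It holds no p-value, read count or value per library.

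Coordinates are 1-based on GRCm38. All 2991 region bounds inside RefSeq promoter windows fell on a CpG. Gene bounds came from a RefSeq table of that assembly, for protein-coding genes, without exons. Promoter windows were not used here for chromosome 18, so shares near gene starts leave it out. Gene starts were also missing over stretches of other chromosomes. The nearest one lay 2186568 bp from a region inside Fzd3 and 6660146 bp from a region 828 bp outside Ccne2. Regions in such stretches were kept in the shares. Distances run from edge to edge. Shares carry 95% Wilson intervals, which cover counting error over regions only and treat neighbouring regions as independent. Interval routines were tested on simulated data.

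The regions, gene lists and measures were chosen with earlier results of these data known. Among regions of at least 10 positions in or within 5 kb of a gene, those named are the 6 with the largest difference, the 6 with most positions and the 6 with the highest DKO level. Also named are the 6 genes holding most regions, the 2 leading genes of each list with at least 3 genes holding one, and the 4 promoter gains with most positions. Some of these genes are given only by their counts, and some are not reported here. Software was Python 3.11.15 with pandas 2.3.3, numpy 2.4.6 and scipy 1.17.1; figures used matplotlib 3.10.9.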

Additional observations from a re-analysis of the deposited data

How the results depend on the processing

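No paired analysis was possible because the one table used holds group means only, and for the same reason no replicate could be left out. With at least 10 positions 5338 regions remained, with a median length of 467 bp, a median DKO level of 87.9%, 64.2% inside genes, 5.00% at gene ends and 15.6% of genes holding one. At least 3 positions gave a median of 289 bp, a DKO level of 87.6% and 23.2% of genes. A WT level of 65% to 75% gave 4110 regions, 177 bp, 89.9%, 68.1% inside genes and 12.2% of genes. A gain of 25 points or more gave 3423 regions, 276 bp, 89.4%, 64.2% inside genes, a distance of 37340 bp to a gain of 40 points and 9.64% of genes. Merging regions within 500 bp gave a median of 259 bp. A gene end window of 2 kb gave 59.5% inside genes and 9.04% at ends, and the gene body alone gave 21.5% of genes holding one. The median distance was 12406 bp to another gain of 30 points and 363194 bp to a gain of 50 points. By gene body alone, 14 of 19 lists kept a number of genes within 1.5 times, and the 3 keratin lists, cell cycle genes and Polycomb targets did not. Limits for runs were chosen after seeing the data. At gaps of 500 bp 35.2% of the regions were in a run, and 89.0% of those in mixed runs were at the edge. At gaps of 2 kb these were 54.0% and 73.8%, against 47.1% of the other gains at the edge. With at least 3 positions they were 31.7% and 82.5%, against 49.2%. Under these settings most regions stayed inside genes. Unknown depth limits every level.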

Other observations

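On the X chromosome, which the selection left out, 33 of 9306 listed regions (0.355%) met the same bounds, with medians of 88.5% in the DKO and 62.3% in the WT and a median length of 168 bp. They were 7.25% of the 455 gains of 20 points or more on that chromosome. None met the bounds on the Y chromosome or on unplaced scaffolds. The sex of the animals is not given in the sources used here.

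Of 919 autosomal miRNA hairpins of RefSeq, 1 overlapped a 60–80% gain, Mir6375 on chromosome 6. The region, 85789699 to 85790278 with 11 positions, was at 83.3% in the DKO and 62.0% in the WT by the authors' means, and lay between protein-coding genes.

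The authors' extreme statistic was positive for 72 of the 12795 60–80% gains (0.563%), against 95.5% of the other listed regions of 60% to 80% in the WT. The rule had fixed the direction of the difference in the 60–80% gains. In the other set 85122 of 119959 regions were lower in the DKO, so the sign did not always follow the difference. Why it did not was not tested.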
